A study of Mus musculus with 9 samples.

Results

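Genes whose RNA level in the striatum of *Shank3* heterozygotes lay away from the midpoint of WT and KO were searched for among 14239 of the 15464 genes listed. A gene whose level is graded with the number of intact *Shank3* alleles has its HET level near that midpoint. The question was therefore which genes, if any, had a level particular to mice with 1 intact allele. For each gene the deviation was the mean log2(normalized count + 1) of the 3 HET libraries minus the mean of the WT mean and the KO mean. A deviation of 0 is found in a graded gene and also in a gene that does not differ between the genotypes. A negative deviation means that HET was below the midpoint. A gene entered if 3 or more of the 9 libraries held 10 or more normalized counts of it, and no value of the deviation was used to choose it. A gene of low level in the other libraries can still enter through the 3 HET libraries, and the filter then favours a positive deviation. With 3 libraries per genotype this contrast is at right angles to the difference between KO and WT.

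The libraries came from 9 male *Shank3B* mice of 10 to 12 weeks on a C57BL/6J background, 1 mouse and 1 striatum per library. There were 3 WT mice with 2 intact *Shank3* alleles, 3 HET mice with 1 and 3 KO mice with 0, bred as littermates. The mutant allele targets a group of internal exons in the germline, so that no cell type is singled out and exons outside that group can still be transcribed. The sum of normalized counts per library ran from 30830020 to 33790296, which follows the authors' normalization and does not give the depth in reads. Markers of the labelled tissue were present in every library, with *Drd1* and *Drd2*, the dopamine receptors of the striatal projection neurons, between 2058 and 5160 normalized counts. HET replicate 3 and KO replicate 3 stood apart from the other libraries on the first principal component, which held 33.6% of the variance. Results that rest on single libraries are given with and without them.

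Shank3 is a scaffold of the postsynaptic density of excitatory synapses. It binds Homer proteins on one side and, through Dlgap (SAPAP) proteins, the Dlg (PSD-95) family on the other, and so links metabotropic and ionotropic glutamate receptors to the actin cytoskeleton. In the striatum these synapses lie on the medium spiny neurons, which receive glutamatergic input from cortex and thalamus and dopaminergic input from the midbrain. Loss of one copy of the gene causes Phelan-McDermid syndrome in humans, so that the heterozygous mouse carries the genotype that is closest to the human condition.

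No gene passed an adjusted p of 0.05 (limma with Benjamini-Hochberg adjustment over 14239 genes), and 197 genes (1.38%) had an unadjusted p under 0.05. Of these, 90 genes (0.632%) were higher in HET than the midpoint and 107 (0.751%) were lower. The smallest adjusted p was 0.436, for *Slc5a6*, and the next was 1.00. The median absolute deviation over all genes was 0.073 on the log2 scale, against a median standard error of 0.13. When the same contrast was taken with another genotype in the middle, WT against the mean of HET and KO gave 122 genes (0.857%) and KO against the mean of WT and HET gave 145 genes (1.02%). KO against WT gave 117 genes (0.822%). Same-numbered HET and KO libraries deviated together from the means of their genotypes, and with a replicate block shared by HET and KO the count of HET deviations was 630 genes (4.42%), again with 0 past the adjusted threshold. After division of the test statistics by their robust SD, an empirical null that is simpler than the one the study applied to its own p-values, 2 genes passed the adjusted threshold. These were *Slc5a6* with an adjusted p of 0.0019 and *Flnc* with 0.031 (limma statistics).

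A second count needs no model. In 136 genes (0.955%) the 3 HET libraries lay outside all 6 WT and KO libraries, 74 of them above (0.52%) and 62 below (0.435%). The WT libraries lay outside the other 6 in 101 genes (0.709%) and the KO libraries in 103 (0.723%). Of the 136 genes, 69 also had an unadjusted p under 0.05. The genes with p under 0.05 that were higher in HET had a median of 165 normalized counts over the 9 libraries, those that were lower had 421, and all tested genes had 767. The HET genotype thus had more genes of both kinds than WT or KO, by counts whose difference was not tested. With no difference between genotypes, 5% of genes are expected at an unadjusted p under 0.05. A share of 0.0119 is expected with the HET libraries above all others, and the same share with them below. All HET shares were under these levels, so that the counts are no excess over random labels.

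**Figure D1:**
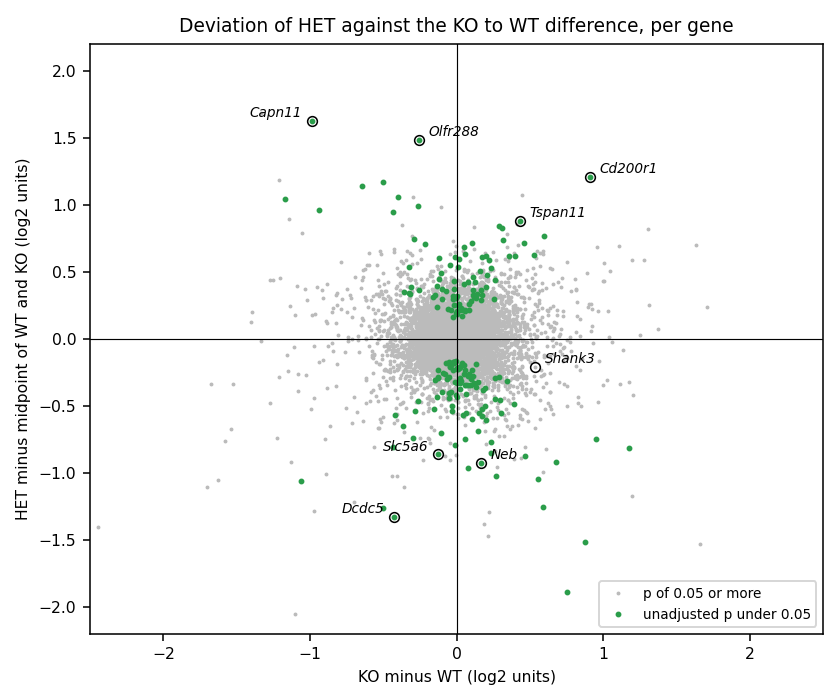
Each point is 1 gene, with the log2 difference between KO and WT on the x axis and the HET deviation from the midpoint, in log2 units, on the y axis. Green points have an unadjusted p under 0.05 for the deviation (197 genes), 8 genes are circled and named, and 14233 of the 14239 genes lie within the axes (*Flnc* is outside). Most green points lie near the vertical line, where KO equals WT, while *Shank3* lies to the right with a deviation of −0.21.

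*Slc5a6* had the smallest p of all genes tested. It encodes the sodium-dependent multivitamin transporter, which carries biotin, pantothenate and lipoate into cells and across the blood-brain barrier. In HET its level was 319, 268 and 315 normalized counts in replicates 1, 2 and 3, the order used for all such values here. In WT it was 585, 612 and 517, and in KO 439, 556 and 585. All 3 HET libraries were thus below the lowest of the other 6, and KO overlapped WT. The HET mean was 54.8% of the midpoint of the other means, and the deviation was −0.86 ± 0.12 (SE, n = 3 mice per genotype; unadjusted p = 3.06e-05 and adjusted p = 0.436 from limma). The two-sided exact permutation test over the 84 ways to choose 3 of 9 libraries gave p = 0.0119, the smallest that it allows. Because the gene was picked by its p for the same contrast, this value adds no separate support. HET was lower than WT by a log2 difference of −0.92 and lower than KO by −0.80, while KO and WT differed by −0.13. Leaving out any 1 of the 9 libraries gave deviations between −0.93 and −0.78.

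*Slc5a6* (ENSMUSG00000006641) lies on the minus strand of chromosome 5 of GRCm38, at chr5:31036036-31048924, and is protein-coding. It starts head to head with *Atraid*, a gene on the plus strand that encodes a protein linked to all-trans retinoic acid. In the GENCODE annotation the first bases of the genes overlap on opposite strands, while the RefSeq starts used for the sequence leave a short stretch between them. The stretch between the start of *Atraid* and the upstream one of 2 RefSeq starts of *Slc5a6*, shown because it is shared by a gene that was low in HET and a neighbour to be compared with it, is at chr5:31048563-31048639 of GRCm38.p6 and has 77 bases. It is written from 5′ to 3′ on the minus strand, so that it runs into *Slc5a6*, and the capitals mark CCGCCC, the reverse complement of the GC box GGGCGG.
Slc5a6 Atraid: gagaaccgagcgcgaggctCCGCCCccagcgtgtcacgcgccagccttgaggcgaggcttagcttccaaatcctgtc
GGGCGG was searched on both strands and had 1 match here. Stretches of the same length and position before the starts of the RefSeq promoter table held it in 21.7% of cases (7123 of 32851).

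*Atraid* had no difference of this size. Its levels of 912, 926 and 630.4 normalized counts in HET overlapped those in WT (877, 974 and 1021) and in KO (961, 1002 and 796). Its deviation was −0.21 ± 0.14 (SE, unadjusted p over 0.05). The other neighbours lay between −0.23 and 0.12, which were the values of *Cgref1* and of *Tcf23*, a gene of low level, and none had an unadjusted p under 0.05. The libraries were made with a stranded kit, which marks the strand of each read, and the library type set in Salmon is not given in the sources used here. *Cad*, which encodes the enzyme that starts pyrimidine synthesis, was at −0.05, and *Mpv17*, of a mitochondrial inner membrane protein, at 0.10.

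**Figure D2:**
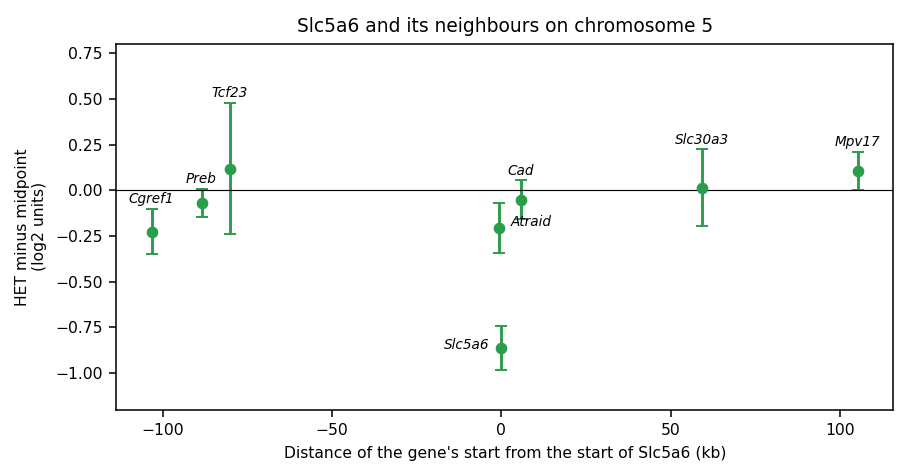
The HET deviation from the midpoint in log2 units is plotted for *Slc5a6* and the 7 tested genes around it, against the distance in kb between the start of each gene and that of *Slc5a6* on chromosome 5. Bars are standard errors from limma with 3 libraries per genotype. *Slc5a6* is at −0.86 and the other genes are between −0.23 and 0.12.

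The other genes of biotin, pantothenate and lipoate handling were near the midpoint. Of 26 genes in this list, *Slc5a6* was the only one with an unadjusted p under 0.05 (3.85%, against 1.38% of all genes tested). The median deviation was 0.034 against 0.00013 over all genes tested, or 0.0076 without HET replicate 3 and 0.066 without HET replicate 2. The transporters *Slc19a3*, which carries thiamine, and *Slc16a1*, the monocarboxylate transporter of endothelium and glia, were at 0.12 and 0.04. *Btd* and *Hlcs*, which release biotin from proteins and attach it to them, were at −0.05 and 0.04. The biotin-dependent carboxylases *Acaca*, *Mccc1* and *Pcx* were between −0.02 and 0.08. *Pcca* had the highest value of the list, 0.36 ± 0.25 (SE), from HET libraries of 816, 696 and 1652 normalized counts. Here HET replicate 3 alone was far above the others, and KO replicate 3 with 1131 was the next. *Pank1*, a pantothenate kinase of coenzyme A synthesis, was at −0.04.

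*Flnc* had the second smallest p. It encodes filamin C, the actin crosslinker of skeletal and cardiac muscle. All 3 WT libraries list it at 0. The values were 53.6, 19.6 and 92.0 normalized counts in HET and 0, 16.3 and 0 in KO. All HET libraries were above the other 6, although HET replicate 2 was close to KO replicate 2. *Flnc* would not have passed the filter on low values without its HET libraries, so that the filter favours this order. A fold is not given because WT was listed at 0 throughout. The unadjusted p was 0.00028 and the adjusted p 1.00 (limma with Benjamini-Hochberg adjustment), and without KO replicate 2 the adjusted p was 0.047. That fit leaves out the only library outside HET with a value above 0, so that WT and KO then have no spread. The lower p is therefore no added support. The exact permutation test gave p = 0.0119 here as well, again for a gene picked by the same contrast, so that it adds no separate support. *Flnc* (ENSMUSG00000068699) lies on the plus strand at chr6:29433256-29461883.

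*Flna*, the widely expressed filamin gene, had no such difference, with a deviation of 0.00. Among the 29 tested genes of a filamin and sarcomere list of 35, 2 were higher and 2 lower at an unadjusted p under 0.05. This is 13.8% of the list, against 1.38% of all genes tested. The list was chosen with earlier results known and includes *Flnc*, so that its share is not a result about it. Its median deviation was 0.0015, which was −0.034 without HET replicate 2 and 0.056 without WT replicate 2. Both directions held called genes. The lower ones were *Neb*, which encodes the thin-filament ruler nebulin, at −0.93, and *Actn3*, which encodes the alpha-actinin of fast muscle fibres, at −0.55. The higher ones were *Flnc* and *Tnni1*, the slow-muscle inhibitory troponin, at 0.39, or 0.21 without HET replicate 3. *Neb* had 48.7, 30.2 and 25.2 normalized counts in HET against 57.2, 45.2 and 86.3 in WT and 67.9, 88.2 and 53.0 in KO, so that HET replicate 1 was within the range of WT. The muscle genes thus went in both directions. *Ttn*, which encodes titin, was at 0.12 ± 0.70 (SE).

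The 12 lower genes with the smallest p had deviations between −1.33 and −0.26. In 8 of them the HET libraries lay below all others, against 0.435% of all genes tested. The genes were picked by their p for the same contrast, so that this count is no separate support. *Setbp1*, a DNA-binding protein gene whose loss in humans causes a neurodevelopmental disorder, had 908, 905 and 825 normalized counts in HET. It had 1090.5, 1051 and 1182 in WT and 997, 1209 and 1124 in KO, and its deviation was −0.33 ± 0.09 (SE). The WT and KO means of *Setbp1* were nearly equal, at 1108 and 1109.9, and the HET mean was 79.3% of their midpoint. *Osbpl3*, an oxysterol-binding protein of membrane contact sites, had 1349.9, 1499 and 1355 normalized counts in HET, 1505, 1788 and 1895 in WT and 1860.4, 1756 and 1629 in KO. HET replicate 2 was just below WT replicate 1, and the deviation was −0.31 ± 0.09 (SE).

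*Slc25a53*, a mitochondrial carrier gene of the X chromosome, was also below in every HET library, with 402, 389 and 413 normalized counts against 449 to 603 in the other 6. *Ypel1* had 603, 609 and 578 in HET against 636 to 791 elsewhere. *C530008M17Rik* had 1067, 1142 and 898 in HET, all below the lowest other value of 1225. The adhesion receptor gene *Adgrg6*, known from Schwann cell myelination, had 138, 111 and 81.4 in HET, and KO replicate 1 with 141 was barely above the first of these. *Dclre1a*, a nuclease of DNA crosslink repair, was at −0.57, with HET replicate 3 inside the range of WT. *Dcdc5*, annotated as a transcribed unitary pseudogene, was at −1.33, but its level was at most 14.2 normalized counts in any library.

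The 12 higher genes with the smallest p were mostly of low level. On average over the 9 libraries, 9 of the 12 higher genes had fewer than 100 normalized counts, against 2 of the 12 lower genes. The median level was 20.6 for the higher genes and 474 for the lower genes. *Flnc* aside, the 11 higher genes had deviations from 0.24 to 1.62. With *Flnc*, 10 of the 12 had HET libraries above all others, against 0.52% of all genes tested. This count too is no separate support, as the genes were picked by their p for the same contrast. *Nup214* and *Polr2f* were the ones with the highest levels. *Nup214*, of a nuclear pore protein, had 1309.5, 1412 and 1459 normalized counts in HET, 1200.2, 1202 and 1307 in WT and 1207, 1050.0 and 1122 in KO. HET replicate 1 was only just above WT replicate 3, and the deviation was 0.24 ± 0.08 (SE). *Polr2f*, a small subunit shared by the nuclear RNA polymerases, had 483, 569.8 and 575 in HET against at most 477 in the other 6, with a deviation of 0.31 ± 0.10 (SE).

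Among the low genes, *Tmem255b* had 43.8, 53.0 and 58.5 normalized counts in HET and *Gngt2*, a G protein gamma subunit, had 65.7, 85.8 and 85.4. The highest other values were 42.5 and 63.0, so that the lowest HET library of each was near the others. *Cd200r1*, the receptor of myeloid cells for the inhibitory ligand CD200, had 15.7, 20.0 and 18.4 in HET against at most 12.5. *Olfr288*, an olfactory receptor gene, had 12.7 to 18.1 against at most 7.38, and *Fam221a* had 27.0 to 31.9 against at most 26.4. *Fam178b* and *Marveld3*, the latter of a tight junction protein, were also above in every HET library, at 0.99 and 1.05. *Tspan11*, a tetraspanin gene, had 198, 104 and 186 in HET and overlapped KO, which reached 124. *Capn11*, a calpain gene known from testis, was at 1.62, with HET replicate 3 at 46.9 and HET replicate 2 at 9.16, inside the range of WT, and without HET replicate 3 it was at 0.98. *Olfr288* passed the filter on low values only through its HET libraries. *Cd200r1*, *Fam178b* and *Capn11* would not have passed without theirs. For these genes the filter itself favours a higher HET level.

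**Figure D3:**
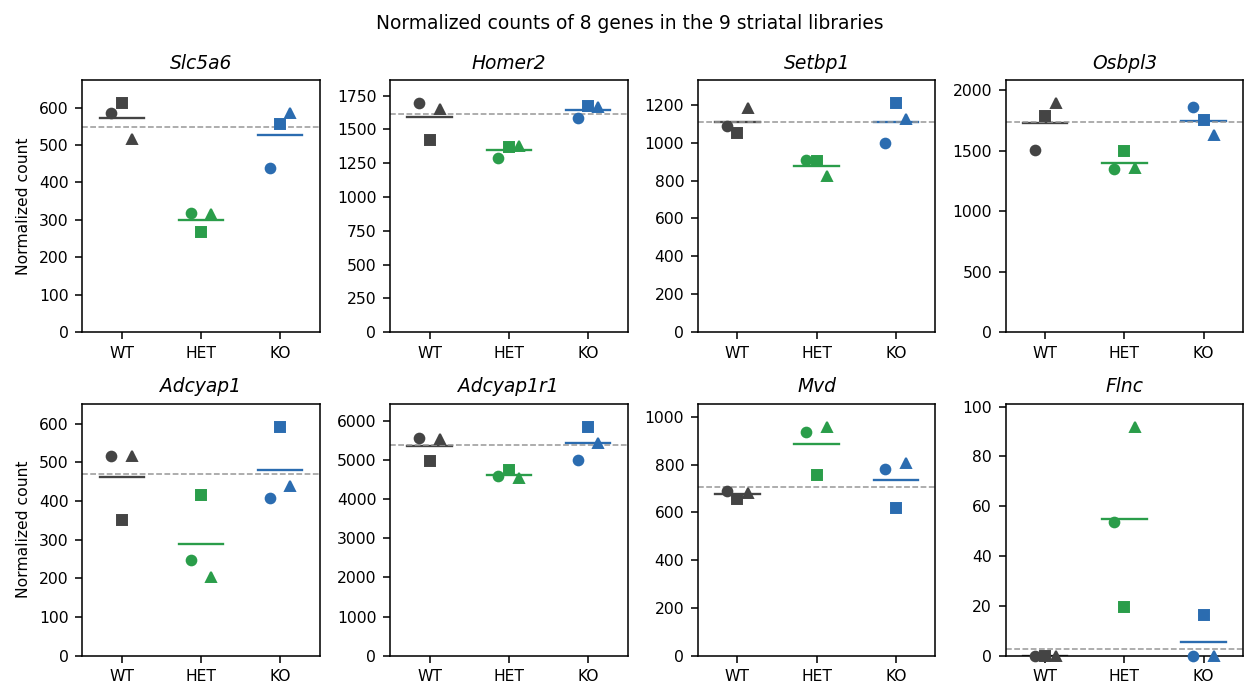
Normalized counts (y axis, starting at 0) of 8 genes in the WT, HET and KO libraries, where circles, squares and triangles are replicates 1, 2 and 3, the short lines are the means of 3 mice and the dashed line is the midpoint of the WT and KO means. *Slc5a6*, *Homer2*, *Setbp1*, *Osbpl3* and *Adcyap1r1* have all HET points below the others and *Flnc* has them above, while *Adcyap1* and *Mvd* overlap.

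*Shank3* itself was at 7575, 7098 and 8049.9 normalized counts in HET. In WT it was at 7209, 8812 and 6043 and in KO at 10237, 10798 and 10578, so that HET lay within the range of WT and below all KO libraries. The HET deviation was −0.21 ± 0.11 (SE, unadjusted p = 0.089 from limma), with a log2 difference of 0.06 from WT and −0.48 from KO. *Shank3* (ENSMUSG00000022623) is on chromosome 15, and these values are sums over the whole gene that include exons outside the targeted ones. They therefore do not check the genotype labels. Of the 65 tested genes that start within 5000000 bases of *Shank3*, none had an unadjusted p under 0.05 for the deviation, and their median was −0.021, or −0.045 without HET replicate 3. Chromosome 15 as a whole had 7 higher and 4 lower genes of 577 (1.91%, against 1.38% of all genes tested).

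Of the partners of Shank3 at the synapse, 1 had an unadjusted p under 0.05 for the deviation. *Homer2* encodes a Homer protein, which joins Shank3 to group I metabotropic glutamate receptors and to calcium release channels. Its level was 1291, 1366 and 1376 normalized counts in HET, 1694, 1419.6 and 1650.3 in WT and 1586, 1673 and 1663 in KO. The HET libraries were all below the other 6, and WT replicate 2 was nearest to them. The deviation was −0.26 ± 0.08 (SE), the HET mean was 83.3% of the midpoint, and KO was within the range of WT. The unadjusted p was 0.0081 (adjusted p = 1.00, limma with Benjamini-Hochberg adjustment). Its paralogs were at 0.02 (*Homer1*) and 0.03 (*Homer3*).

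Over the list of 22 excitatory scaffold genes, *Homer2* was the only one called (4.55%, against 1.38% of all genes tested). In this list 8 genes had a positive deviation and the median was −0.067, or −0.116 without HET replicate 3 and −0.0059 without HET replicate 2. *Shank1* and *Shank2* were at −0.11 and −0.16 and *Dlgap1* at −0.19, none with an unadjusted p under 0.05. *Cnksr2* was at −0.14, also with an unadjusted p over 0.05. Its HET libraries, with 5991, 6470 and 6363 normalized counts, were all below the WT and KO libraries, which had 6537 or more. *Dlg4*, which encodes PSD-95, was at 0.08 and *Dlgap3* at 0.04. None of 22 ionotropic glutamate receptor genes, 7 metabotropic glutamate receptor genes or 14 GABA receptor genes had an unadjusted p under 0.05, and their medians were −0.043, −0.021 and −0.038. These medians rested on single libraries, as the first was 0.020 without HET replicate 2, the second 0.037 without WT replicate 1 and the third −0.082 without HET replicate 3 and −0.011 without HET replicate 1. In these lists the smallest p belonged to *Grin2d*, *Grm2* and *Gabrb2* in turn, at −0.21, −0.28 and −0.15. *Grin2d* was at −0.12 without HET replicate 2. *Grm2* was at −0.09 without HET replicate 1 and −0.52 without HET replicate 3. *Gabrb2* was at −0.08 without HET replicate 2 and −0.27 without HET replicate 1.

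*Adcyap1*, which encodes the neuropeptide PACAP, and *Adcyap1r1*, which encodes its selective receptor PAC1, were both low in HET. *Adcyap1* was among the 12 lower genes with the smallest p and *Adcyap1r1* was the abundant gene (mean of at least 5000 normalized counts) with the smallest p among those lower. *Adcyap1* had 248, 416 and 203 normalized counts in HET, 517, 351 and 518 in WT and 407, 592 and 438 in KO, with a deviation of −0.75 ± 0.23 (SE). HET replicate 2 lay above WT replicate 2 and KO replicate 1, so that the groups overlapped for the peptide. *Adcyap1r1* had 4593, 4759 and 4542 in HET, 5566, 4976 and 5556 in WT and 5003, 5863 and 5441 in KO, and its deviation was −0.22 ± 0.08 (SE). All HET libraries of the receptor were below the others, by a HET mean of 85.8% of the midpoint. The related receptor genes *Vipr1* and *Vipr2* and the peptide gene *Vip*, looked up after these values were seen, were at −0.11, −0.75 and −0.17, each with an unadjusted p over 0.05.

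Other abundant genes with the smallest p were *Atp2b4* and *Prickle2* on the lower side and *Trf* and *Nefm* on the higher side. *Atp2b4*, a plasma membrane calcium pump, had 6119.5, 6742 and 5665 normalized counts in HET, with WT from 6768 to 10512 and KO from 6642 to 9641, and its deviation was −0.42 ± 0.15 (SE). HET replicate 2 overlapped the lowest KO library. *Prickle2*, a planar polarity gene of the postsynaptic density, had 5496, 5604 and 5006 in HET against 5869 or more in all others, at −0.17 ± 0.07 (SE). *Nefm*, the medium neurofilament, was at 0.18 with an unadjusted p of 0.065 (limma).

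*Trf*, transferrin, which oligodendrocytes make in brain, had 10600.0, 10057 and 15886 normalized counts in HET, 7254, 7562 and 11861 in WT and 9515, 9838 and 8129 in KO. Its deviation was 0.42 ± 0.19 (SE) and 0.22 without HET replicate 3. Oligodendrocyte markers mostly deviated upwards in HET as well. Of 13 markers, 12 had a positive deviation with a median of 0.32, or 0.14 without HET replicate 3 and KO replicate 3. None of the 13 had an unadjusted p under 0.05. *Mbp*, which encodes a main protein of myelin, was at 0.30, and the precursor markers *Pdgfra* and *Cspg4* at 0.01 and −0.04. The summed level of the 13 genes was 240957 to 270531 in HET, 171258 to 280534 in WT and 148901 to 262351 in KO, so that HET lay within the range of WT. The part of these cells in the value of *Trf* was not tested. In bulk tissue more cells of a type and more RNA per cell cannot be told apart.

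Cholesterol synthesis, ribosomal and oxidative phosphorylation genes had more positive than negative deviations, while over all genes tested 50.1% were positive. Cholesterol synthesis had 18 of 23 genes with a positive deviation and a median of 0.072 (0.135 without HET replicate 2). In it 2 genes were called, both higher (8.70%, against 1.38% of all genes tested). *Mvd*, which makes isopentenyl diphosphate from mevalonate, had 939, 756 and 959.5 normalized counts in HET, 689, 656 and 682 in WT and 782, 618 and 805 in KO, at 0.32 ± 0.11 (SE). The HET libraries were above all WT libraries, and HET replicate 2 was below 2 of the KO libraries. *Insig1*, which holds SREBP proteins in the endoplasmic reticulum, was at 0.29 ± 0.12 (SE). *Srebf2*, the main transcription factor of the pathway, was at −0.03.

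Of 75 tested cytosolic ribosomal protein genes, 59 had a positive deviation. The median was 0.061 (0.019 without HET replicate 2 and 0.104 without HET replicate 1). In this list 3 genes were called, all higher (4%, against 1.38% of all genes tested). *Rpl27a* had 2908, 2985 and 3011 normalized counts in HET against at most 2853 in the others, at 0.21 ± 0.08 (SE). Ribosomal protein genes have many processed copies in the genome and reads could be split among them, so that single values are uncertain. Oxidative phosphorylation had 51 of 72 genes with a positive deviation and a median of 0.049, with none called, and the median was 0.019 without HET replicate 2 and 0.084 without HET replicate 1. For heat shock and chaperone genes the median was 0.021 over 24 genes, or 0.059 without HET replicate 1, with none called, and *Cryab* had the smallest p at 0.31. None of 60 extracellular matrix genes and 49 anchoring junction genes was called either. Their medians of −0.015 and −0.014 turned to 0.051 and 0.053 without HET replicate 1, and their lowest values were −0.078 for the matrix without HET replicate 2 and −0.037 for the junctions without HET replicate 3.

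Medium spiny neuron genes and genes of neuronal activity had medians of opposite sign. Of the 20 medium spiny neuron genes 19 had a positive deviation, with a median of 0.19, and none was called. *Drd1* was at 0.21 and *Drd2* at 0.28. Summed over the list the HET libraries had 183744 to 233585 normalized counts, WT 140227 to 262702 and KO 141133 to 199639, so that the HET libraries lay inside the range of WT. The median was 0.053 without HET replicate 3 and KO replicate 3, 0.037 without WT replicate 3 and 0.325 without HET replicate 2. The 16 genes of neuronal activity, which neurons transcribe within minutes of firing, all had a negative deviation, with a median of −0.19 and none called. *Fosb* was at −0.45, *Fos* at −0.38, *Arc* at −0.12 and *Egr1* at −0.13. For these genes HET replicate 3 was on the other side, as its own median deviation was 0.048 against −0.42 and −0.23 for HET replicates 1 and 2. The median over the genotype was −0.33 without HET replicate 3 and −0.098 without HET replicate 1. Genes within a list share the same libraries, and a common shift of 1 library moves all of them.

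Of the 19 circadian clock genes, *Per2* was lower and *Rora* higher at an unadjusted p under 0.05 (10.5%, against 1.38% of all genes tested). The median of the list was −0.041, which was −0.088 without HET replicate 3 and 0.0050 without HET replicate 2. *Per2*, a repressor of the clock, had 1371, 1296 and 1841 normalized counts in HET against 1559.5 to 1921 in the others. HET replicate 3 was therefore inside the other groups, and the deviation of −0.28 ± 0.12 (SE) was −0.44 without it and −0.18 without HET replicate 2. *Rora*, a nuclear receptor that activates clock genes, had 1777, 1573 and 1682 in HET against 1469.7, 1472 and 1466 in WT and 1553, 1259 and 1428 in KO. All HET libraries of *Rora* were above the others, at 0.22 ± 0.08 (SE). *Rora* is also the 1 member called of 11 tested thalamic and septal neuron markers (9.09%, against 1.38% of all genes tested). The median of these markers was −0.055, or −0.202 without KO replicate 1 and 0.0017 without HET replicate 1. The time of day of tissue collection is not given in the sources used here.

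Markers of other cell types that a striatal dissection can hold had no called genes besides *Rora*. The median deviation was −0.040 for 12 cortical glutamatergic neuron markers, −0.041 for 12 striatal interneuron markers and 0.060 for 12 microglia markers. The first was −0.160 without HET replicate 2 and 0.024 without HET replicate 1, the second −0.071 without WT replicate 3 and −0.014 without KO replicate 3, and the third −0.0041 without HET replicate 2 and 0.092 without KO replicate 1. It was 0.13 for 11 astrocyte markers and 0.13 for 16 vessel and meninges markers, where HET replicate 2 and HET replicate 3 were high. The astrocyte median was 0.053 without HET replicate 3, and that of vessel and meninges was 0.060 without HET replicate 2 and 0.338 without HET replicate 1. The 5 tested blood markers had a median of 0.31 and the 8 tested choroid plexus markers 0.16. The blood median was 0.156 without WT replicate 1 and 0.474 without WT replicate 3, and the choroid plexus median turned to −0.078 without HET replicate 2 and was 0.261 without HET replicate 3. *Ttr*, the defining choroid plexus gene, did not pass the filter on low values. *Calb2*, a marker in 2 of the lists, was at −1.11 ± 0.58 (SE), a value set largely by WT replicate 3 with 1295 normalized counts and at −0.66 without it. Over all 24 lists, 13 of the 568 genes tested (2.29%) had an unadjusted p under 0.05, against 1.38% of all genes, and 17 lists had none. The lists were chosen with earlier results of these data known and include *Slc5a6* and *Flnc*. The higher share in the lists is therefore not a result about them. Over the 9 fits without 1 library, the median kept its sign throughout in 14 of the 24 lists and changed sign at least once in 10.

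**Figure D4:**
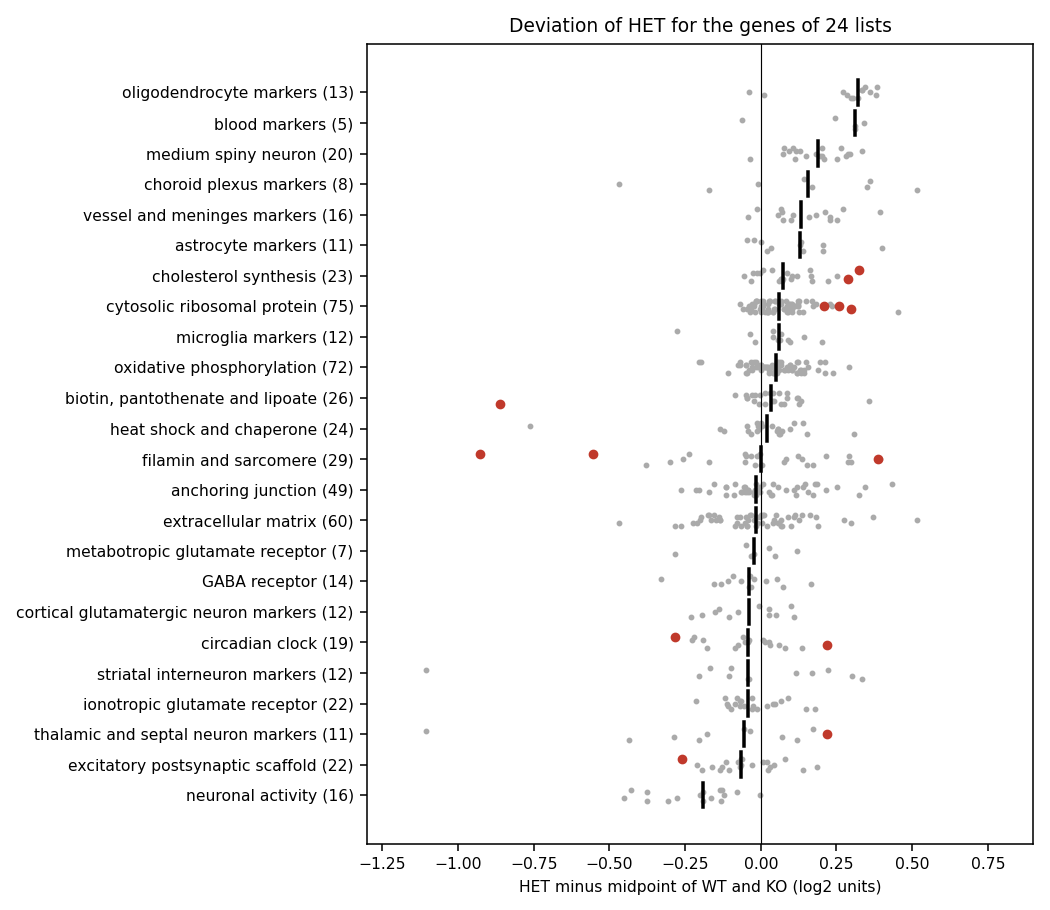
The HET deviation from the midpoint, in log2 units, of each tested gene in 24 lists, with the number of genes in brackets. Red points have an unadjusted p under 0.05, black bars are the medians of the lists, and *Flnc* of the filamin and sarcomere list lies to the right of the axis. The medians run from −0.19 for neuronal activity to 0.32 for oligodendrocyte markers.

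The position of HET was then read for the 117 genes that differed between KO and WT at an unadjusted p under 0.05. HET values entered this choice only through the estimate of the spread, which all libraries share. The HET mean was between the WT and KO means in 95 of them, beyond WT in 13 and beyond KO in 9. It was nearer to WT in 69 genes and nearer to KO in 48. Choosing genes by a large difference between KO and WT favours a HET mean between them, also without any effect of allele number. The count of 95 therefore does not show grading. With the deviation signed so that positive means towards KO, the median was −0.030, with quartiles at −0.18 and 0.10, against a median distance of 0.27 from the midpoint to either mean. Taken for each HET library alone the median was −0.085, −0.054 and 0.020, so that the median was smaller than the SD of these 3 values, 0.054. Of the 117 genes, 4 (3.42%) had an unadjusted p under 0.05 for the deviation, against 1.38% of all genes. Both contrasts use the same spread of each gene, and a gene of small spread passes more easily in both. These shares can therefore not be compared. The sign of the median was not stable, since it ran from −0.18 without KO replicate 1 to 0.12 without WT replicate 2, and it was 0.044 with the replicate block shared by HET and KO.

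Single genes among the 117 show the range, and were chosen after their values were seen. *Slc11a2*, an iron transporter, had 1984, 1598 and 1629 normalized counts in HET between 1959 to 2011 in WT and 1321 to 1461 in KO, with HET replicate 1 at the level of WT. Its deviation of 0.07 ± 0.09 (SE) was near the midpoint. *Cers5*, a ceramide synthase, had 1052, 1257 and 1232 in HET, 1026 to 1137 in WT and 1382 to 1544 in KO, at −0.11 ± 0.09 (SE). *Acvrl1*, an endothelial receptor of the TGF-beta family, was nearer to WT, with means of 1276 in WT, 1169 in HET and 603 in KO. *Dennd6b* was nearer to KO, with means of 2517 in WT, 2110.1 in HET and 2057 in KO.

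**Figure D5:**
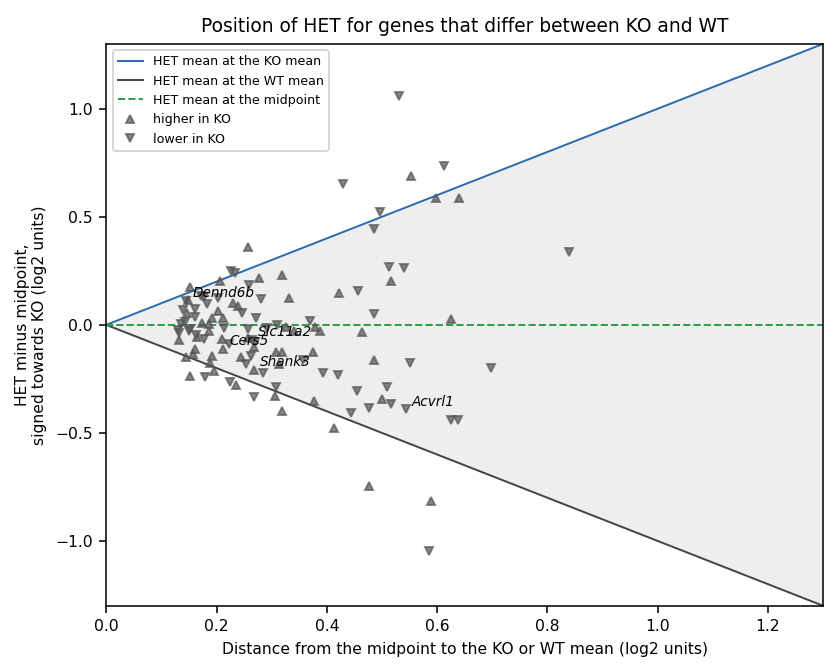
For genes that differ between KO and WT at an unadjusted p under 0.05 (116 of 117 within the axes), the x axis is the absolute log2 distance from the midpoint to the KO or WT mean and the y axis the HET deviation signed towards KO, in log2 units. Points on the blue line have the HET mean at the KO mean, points on the dark line have it at the WT mean and points on the dashed line have it at the midpoint. Most points, 95 of 117 genes, lie in the grey area between the means, on both sides of the midpoint. The choice of genes by the KO to WT difference favours this.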

How the data were processed

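Striatal RNA-seq of 3 WT, 3 HET and 3 KO mice was analysed. The deposited signal holds normalized counts of each gene, which the authors obtained from Salmon 0.9.1 on GRCm38 with GC bias correction, tximport and DESeq2 1.19.11 size factors in R 3.6.0 (versions from the submitters' processing notes). Whole reads could not be recovered and the depth is unknown, so that no counting interval is given. The count test of the study was replaced by limma 3.58.1 (R 4.3.3) with trend on log2(normalized count + 1), all 9 libraries in one fit without covariate, Benjamini-Hochberg adjustment and a threshold of 0.05. This scale understates changes of genes with low counts. P-values measure the spread between single mice.

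Each column was matched to a sample through its name, and 0 columns stayed unused. Symbols were found for 15457 genes and not for 7. Coordinates follow a GENCODE annotation of GRCm38 and the printed sequence RefSeq on GRCm38.p6. Named genes were *Shank3*, genes past the adjusted threshold, the 12 higher and 12 lower genes with the smallest p, the 3 higher and 3 lower with the smallest p among genes with a mean of at least 5000, and of each list the members at an unadjusted p under 0.05 (at most 4) or else the one with the smallest p. Any other gene in the text was picked with its values in view. Members and lists were chosen with earlier results of these data known.

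Deviations from the genotype means of HET and KO libraries with equal numbers correlated at 0.52, 0.28 and 0.51, WT and HET gave 0.32, −0.014 and 0.0054, and WT and KO gave 0.24, −0.22 and 0.024. The HET and KO values were all positive, while those with WT had both signs. Libraries of unlike numbers were not compared, so that a pairing by these numbers was not tested. The sources used here do not say what the numbers stand for. Simulated data with known changes were used to test the script. Alternatives were other filters, pseudocounts, normalizations, variance priors, an empirical null, replicate blocks and leaving out libraries. Exon-level data were not analysed here, and the values of some genes that meet the rule are not reported here. Figures were drawn with matplotlib 3.10.9.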

Additional observations from a re-analysis of the deposited data

How the results depend on the processing

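The count of 0 genes past the adjusted threshold became 2 with the empirical null (*Slc5a6* and *Flnc*) and ran from 0 to 1 with each library left out, the 1 being *Flnc* without KO replicate 2. KO replicate 2 is the only library outside HET with *Flnc* above 0. It was 0 under the other alternatives run. The 197 genes at an unadjusted p under 0.05 became 685 with the empirical null, 356 with a replicate block over all genotypes and 630 with a replicate block shared by HET and KO, and ran from 137 to 415 with each library left out (415 without HET replicate 2, 301 without HET replicate 1). Both blocks kept 0 genes past the adjusted threshold. The 136 genes with HET libraries outside all others became 178 to 763 with 1 library left out and 939 without HET replicate 3 and KO replicate 3, as fewer libraries have to be passed. The median position of HET among genes that differ between KO and WT, −0.030, was 0.044 with the replicate block shared by HET and KO and ran from −0.179 to 0.115 with each library left out. The causes of these changes were not tested. The adjusted p of *Slc5a6* ran from 0.0019 to 1.00 over 21 alternatives, with the deviation between −0.925 and −0.783. Of 1221 values of named genes under the alternatives, 1220 kept their direction, and the exception was *Ndufa13*, at 0.29, from −0.042 without HET replicate 3 to 0.498 without HET replicate 1. Of 519 such values for the 24 genes with the smallest p all kept their direction, and 8 moved by over 1.5 times, of which 6 came from a pseudocount of 8 in genes of low level. Most named genes were picked by a small p for the deviation in these same data. A change of direction was therefore unlikely from the start, and the kept directions are no separate support. Of 572 list medians 20 moved by more than the spread between libraries. The unknown depth limits what can be said of genes near 0, such as *Flnc*.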

Other observations

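The genes with an unadjusted p under 0.05 for the HET deviation were spread over all autosomes and the X chromosome. The largest share was on chromosome 6, with 17 of 700 tested genes (2.43%), and this chromosome also held 4 of the 24 genes with the smallest p, namely *Flnc*, *Osbpl3*, *Tspan11* and *Fam221a*. *Adcyap1r1* and *Prickle2* are also on the same chromosome. The X chromosome had 11 of 486 genes (2.26%) and the lowest median deviation of the chromosomes, −0.039. Chromosomes 12 and 19 had the smallest shares, with 3 of 497 (0.604%) and 3 of 480 (0.625%). No test of these shares was made. Of the 197 genes, 196 are annotated as protein-coding, and *Dcdc5* is annotated as a transcribed unitary pseudogene.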
